A study of Mus musculus with 33 samples.

Results

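DNA replication and mitosis genes were followed in mouse liver with the Nlrp3 A350V knock-in and in wild-type liver, on control chow or on a diet with an ASK1 inhibitor. The set held 44 of the 19169 genes of the count table, found by exact gene symbol. Of these, 18 act in G1 or at the start of S phase (the G1/S genes) and 26 act in G2 or mitosis (the G2/M genes). All 44 passed the filter on low counts, as did 14934 genes in all. The knock-in (KI) mice carried Nlrp3A350V/+CreT, an Nlrp3 allele switched on by a tamoxifen-inducible Cre, and the wild-type (WT) mice carried no knock-in. The labels give neither the age of the mice nor whether WT mice received tamoxifen. The ASK1i diet contained GS-444217, which inhibits the stress kinase ASK1, and the control was chow with placebo, each given for 6 weeks. There were 10 libraries of KI mice on the ASK1i diet (KI ASK1i, 5 female and 5 male), 5 of KI mice on control chow (KI control, 1 female and 4 male), 8 of WT mice on the ASK1i diet (WT ASK1i, 4 female and 4 male) and 10 of WT mice on control chow (WT control, 7 female and 3 male). Whether every library came from its own mouse is not stated in the labels, and the p-values therefore reflect library-to-library spread, which may be partly technical.

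A cell that prepares to divide first loads the MCM helicase onto replication origins in G1, then copies its DNA in S phase, and later condenses, aligns and separates its chromosomes under the control of cyclin B and CDK1. The G1/S genes are largely driven by E2F transcription factors, and the G2/M genes by the DREAM and B-MYB-FOXM1 complexes, which bind a short element called the CHR and work with NF-Y at CCAAT boxes. Most hepatocytes of an adult liver rest outside the cycle, whereas the precursors of blood cells divide often, so in whole liver these genes report on all its cell types at once.

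Total counts were 28099685 to 40008114 per library. The liver label was checked on 8 hepatocyte markers, whose summed level was 45679 to 118667 CPM (edgeR's counts scaled to library size) in KI ASK1i (up to 80836 without replicate 5), 42985 to 68719 in KI control, 110232 to 149625 in WT ASK1i and 113798 to 141400 in WT control libraries. Nlrp3 itself was 5.51 to 11.0 CPM in 9 of the 10 KI ASK1i libraries and 7.87 to 15.6 CPM in KI control libraries, against 2.38 to 3.88 CPM in WT ASK1i and 1.62 to 4.96 CPM in WT control libraries. The library labelled KI ASK1i replicate 5 stood apart, with 2.10 CPM of Nlrp3, inside the WT range, and values for KI ASK1i liver that it sets are also given without it. An L code stands in the titles without an explanation. No L code held both KI control and WT control libraries, so within that comparison genotype and L code cannot be told apart.

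The sequences just before the starts of 5 members show which elements linked to either phase they hold. Promoters came from RefSeq (GRCm38.p6), which had an entry for 36 of the 44 members. Mcm4, Ccnd1, Ccne2, Ccna2, Foxm1, Aurkb, Kif20a and Tpx2 had none. The searched elements were the CHR (TTTGAA or TTCGAA), the E2F core (TTGGCGC or TTCCCGC, and likewise TTCGCGC or TTGCCGC) and the CCAAT box (CCAAT), on both strands, in the 250 bases before the start. Capitals mark every match in the last 150 of these bases, read 5′ to 3′ along the gene's strand, which is the minus strand for all 5. Mcm6 (chr1:128359706-128359855) is shown as a G1/S gene with E2F cores, Top2a (chr11:99024190-99024339), Mki67 (chr7:135716380-135716529) and Cdc20 (chr4:118437344-118437493) as G2/M genes with a CHR, and Tyms (chr5:30073626-30073775) as a G1/S gene with no match.
Mcm6: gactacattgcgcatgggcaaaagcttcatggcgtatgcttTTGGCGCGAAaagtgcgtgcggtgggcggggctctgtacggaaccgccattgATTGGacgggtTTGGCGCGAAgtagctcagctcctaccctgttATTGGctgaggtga
Top2a: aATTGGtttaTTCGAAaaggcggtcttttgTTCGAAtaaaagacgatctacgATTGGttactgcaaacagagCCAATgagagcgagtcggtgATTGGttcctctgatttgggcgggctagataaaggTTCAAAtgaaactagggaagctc
Mki67: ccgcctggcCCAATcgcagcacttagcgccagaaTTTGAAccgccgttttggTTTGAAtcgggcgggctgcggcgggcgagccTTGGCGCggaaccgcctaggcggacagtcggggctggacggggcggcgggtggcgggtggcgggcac
Cdc20: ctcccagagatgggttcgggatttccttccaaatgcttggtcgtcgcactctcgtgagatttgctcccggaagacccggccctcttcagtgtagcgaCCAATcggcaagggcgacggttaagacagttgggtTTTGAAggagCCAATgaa
Tyms: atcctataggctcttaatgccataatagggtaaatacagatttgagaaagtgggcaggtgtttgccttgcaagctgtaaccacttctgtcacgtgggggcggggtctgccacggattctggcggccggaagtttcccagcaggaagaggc

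In Mcm6 each capital run with an E2F core holds a match on both strands that share bases (TTGGCGC, and TTCGCGC on the other strand). In Top2a and Mki67 the CHR is repeated, and in Cdc20 a single CHR lies beside a CCAAT box. Mki67 also holds an E2F core. The Tyms stretch holds none of the 3 elements. Cdt1, Ccne1, E2f1 and Chek1, which were called on control chow, held none in the window either, as did Tk1, while Rrm2, which was not called, held an E2F core and a CCAAT box. A CHR was found before 9 of 21 G2/M members (42.9%) and 2 of 15 G1/S members (13.3%), beside 15.0% of the 10674 tested genes with an entry and 19.6% of all 27025 genes of the promoter table. An E2F core was found before 3 of 21 G2/M members (14.3%) and 6 of 15 G1/S members (40.0%), beside 15.3% of the tested genes and 9.01% of all. The CCAAT box was found before 16 of 21 G2/M members (76.2%) and 8 of 15 G1/S members (53.3%), beside 40.2% of the tested genes and 37.5% of all. A match describes letters in this window and is no evidence of binding.

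On control chow, 39 of the 44 genes were higher in KI than in WT liver and none was lower, by edgeR's quasi-likelihood test at an adjusted p (Benjamini-Hochberg) below 0.05. Over all genes, 27.8% were called higher and 28.9% lower in this comparison (56.7% in all). The members' median log2 fold change was 2.40 (0.02 to 4.28), beside -0.03 over all genes. All 26 G2/M genes were called, with a median log2 fold change of 2.93, and 13 of 18 G1/S genes, with a median of 0.97. The 5 not called were the G1/S genes Rrm2, Tyms, Tk1, Ccnd1 and Ccne2. In 29 of 44 members every KI control library lay above every WT control library (21 of 26 G2/M and 8 of 18 G1/S), beside 16.3% of all genes. In bulk liver, more cells of a dividing type and more RNA per cell cannot be told apart. With the L code as a term in place of the title set, 28 members were called higher (20 G2/M and 8 G1/S) and the median log2 fold change was 1.96. Over all genes, 2737 were called higher and 2366 lower in that fit.

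**Figure D1:**
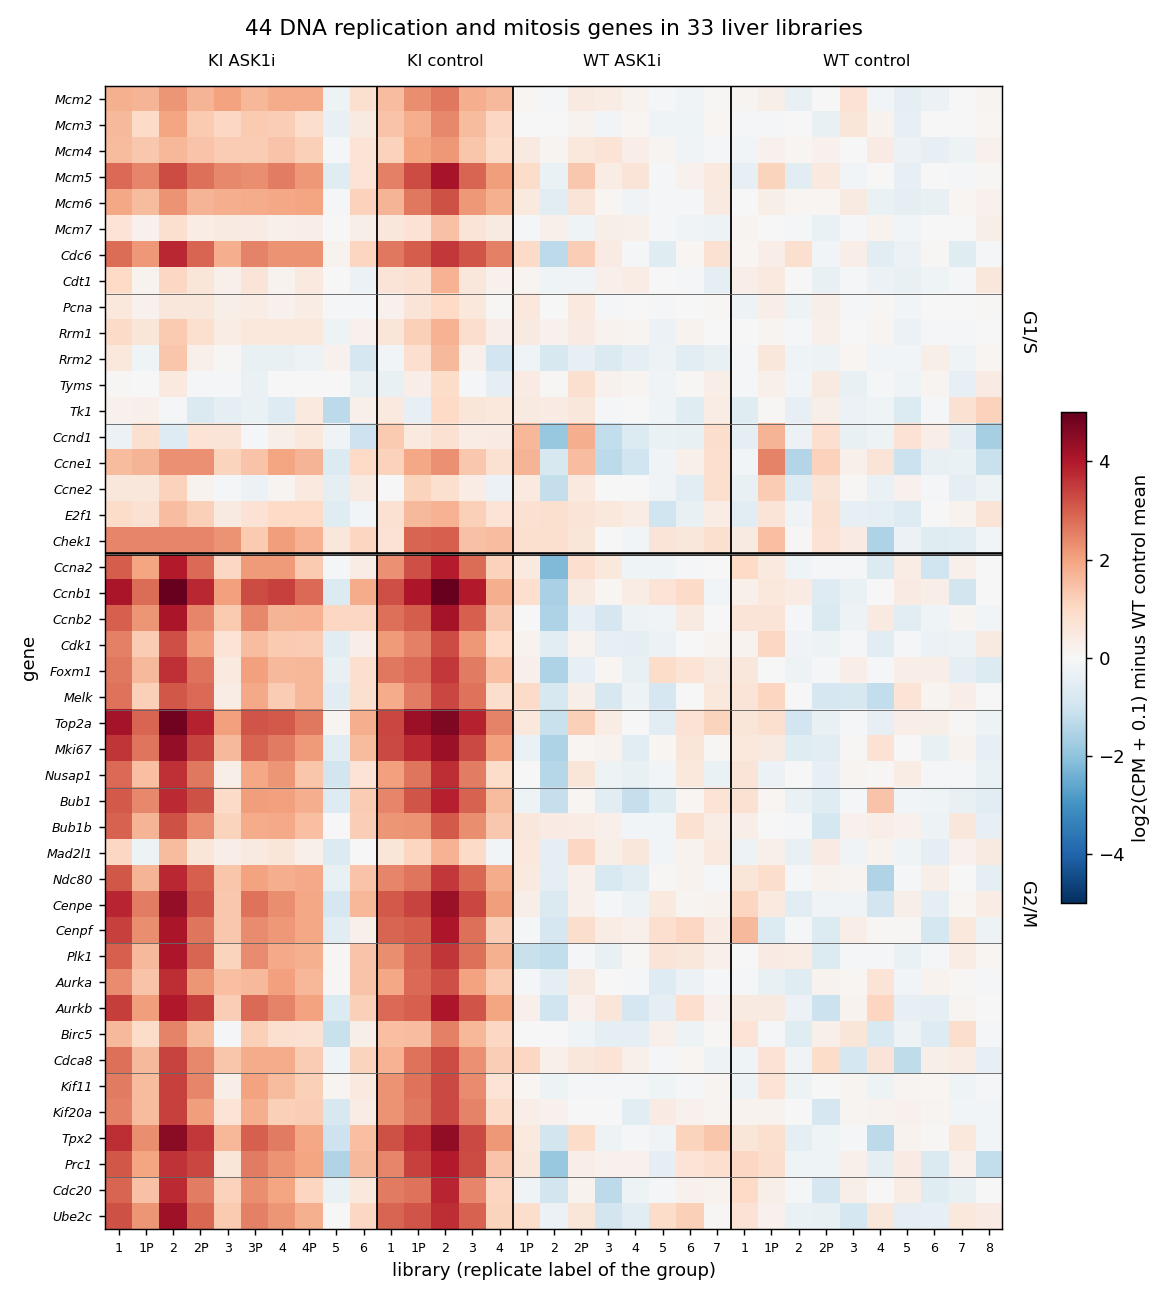
Heat map of log2(CPM + 0.1) minus the WT control mean for the 44 genes (rows, by role, G1/S above G2/M) in the 33 libraries (columns, by group and replicate label). KI libraries are mostly red in the G2/M rows, KI control replicate 2 and KI ASK1i replicate 2 most deeply, and the column of KI ASK1i replicate 5 resembles the WT columns.

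All 8 origin licensing genes were higher in KI control liver, with a median log2 fold change of 1.78. Mcm6 (chr1:128331590-128359656, mm10), a subunit of the MCM helicase ring, had 12.8, 24.5, 36.7, 17.8 and 13.4 CPM in KI control replicates 1, 1P, 2, 3 and 4, against 2.80 to 5.30 CPM (median 4.13) in the 10 WT control libraries. All KI control values lay above all WT control values, with replicate 2 the highest. Its log2 fold change was 2.27 ± 0.26 (SE, adjusted p 3.19e-08, edgeR). Mcm5, another subunit of the ring, had 8.37, 14.1, 25.6, 10.9 and 6.09 CPM in those KI control replicates, against 0.910 to 3.04 CPM (median 1.31) in WT control liver, a log2 fold change of 3.03 ± 0.38. The groups again did not overlap. Mcm7 changed least among the licensing genes, with 16.6 to 34.0 CPM in KI control and 9.73 to 14.9 CPM in WT control liver and a log2 fold change of 0.71 ± 0.13. Mcm2, Mcm3 and Mcm4, the remaining subunits, had log2 fold changes of 1.91, 1.65 and 1.49. The loading factors differed in size. Cdc6, an ATPase that helps load the ring, was at 1.34 to 2.75 CPM in KI control and 0.0640 to 0.337 CPM in WT control liver (log2 fold change 3.46 ± 0.50). Cdt1, its partner in loading, was at 3.03 to 8.90 CPM and 1.97 to 3.88 CPM in these groups (log2 fold change 0.75 ± 0.23, adjusted p 0.00551, edgeR), and without KI control replicate 2 its adjusted p was 0.075.

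Genes of the replication fork and of nucleotide supply moved less, with 2 of 5 called and a median log2 fold change of 0.41. Pcna, the sliding clamp of DNA polymerases, had 30.2, 40.7, 51.6, 37.4 and 26.7 CPM in KI control replicates 1, 1P, 2, 3 and 4, against 21.5 to 31.9 CPM (median 25.6) in WT control liver. The groups overlapped, and the log2 fold change was 0.48 ± 0.12 (adjusted p 0.000831, edgeR). Pcna lost its call in 4 of 47 alternatives. These were the L code as a term (0.15, adjusted p 0.533, edgeR), male libraries only (0.46, adjusted p 0.0886, edgeR), and female libraries or P titles only. Rrm1, the large subunit of ribonucleotide reductase, was at 11.7 to 31.4 CPM in KI control and 7.61 to 11.1 CPM in WT control liver, a log2 fold change of 0.94 ± 0.18 without overlap. With the L code as a term Rrm1 did not pass (0.67, adjusted p 0.0682, edgeR). Rrm2, the small subunit of the same enzyme, was not called, with 6.47, 12.8, 22.0, 8.56 and 3.64 CPM in the KI control libraries and 5.98 to 10.7 CPM in WT control liver. The lowest KI control library lay below every WT control library and the highest far above them (log2 fold change 0.41 ± 0.31, adjusted p 0.254, edgeR). Tyms, which makes thymidylate, had 3.87, 6.32, 9.53, 4.61 and 3.67 CPM in KI control and 3.78 to 6.77 CPM in WT control liver (log2 fold change 0.02 ± 0.18, adjusted p 0.934, edgeR). Tk1, the thymidine kinase of the salvage route, had 29.8, 16.3, 42.7, 32.8 and 31.0 CPM and was at 13.2 to 47.6 CPM in WT control liver (log2 fold change 0.22 ± 0.26, adjusted p 0.49, edgeR). For both, the KI control values fell largely within the WT control range.

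**Figure D2:**
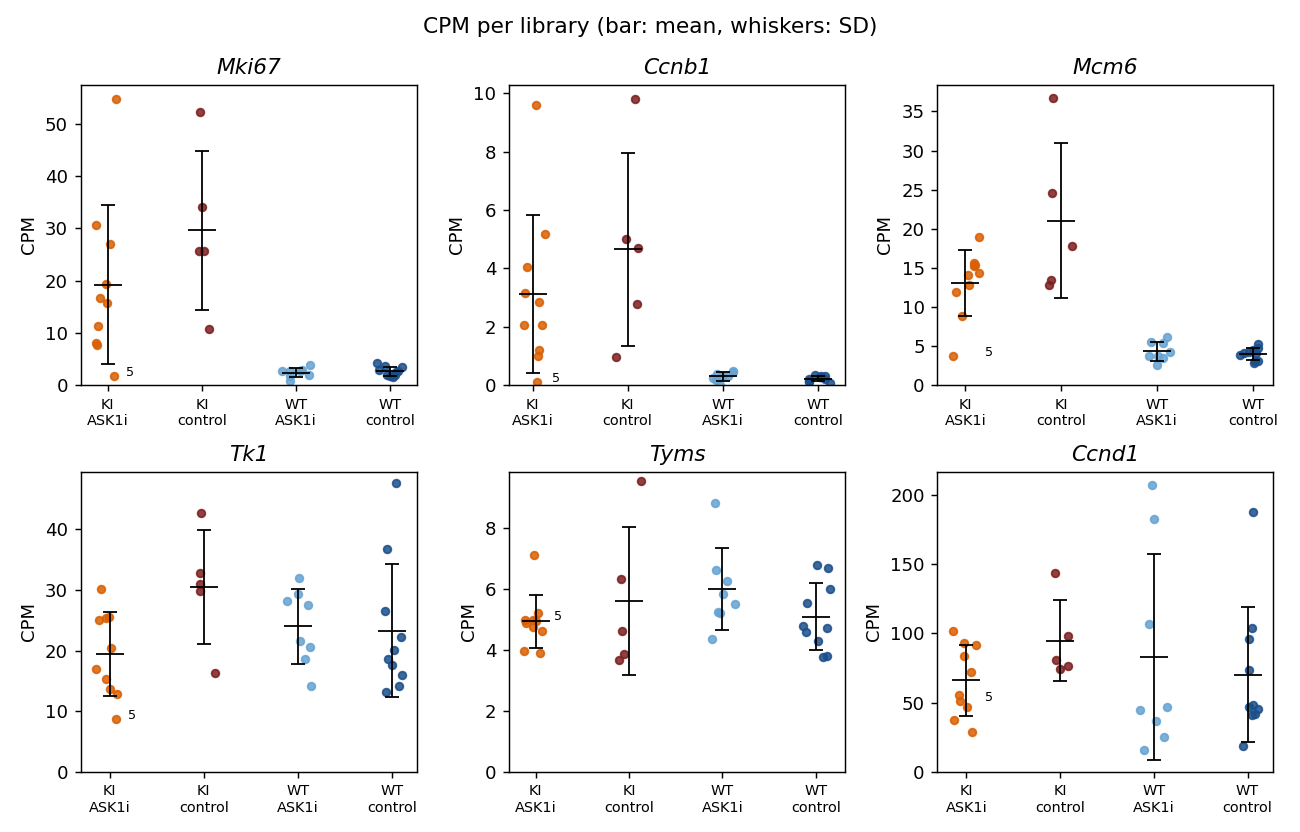
CPM of 6 genes in each library (points) by group, with the group mean (bar) and SD (whiskers), and with KI ASK1i replicate 5 marked as 5. Mki67, Ccnb1 and Mcm6 are higher in most KI libraries, whereas the 4 groups overlap for Tk1, Tyms and Ccnd1.

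Of the G1/S cyclins, E2F1 and the checkpoint kinase, 3 of 5 were called. Ccnd1, the D-type cyclin that starts the passage through G1, had 144, 81.1, 98.3, 74.4 and 76.4 CPM in KI control replicates 1, 1P, 2, 3 and 4, against 18.4 to 187 CPM (median 47.7) in WT control liver. All KI control values lay inside the WT control range, whose highest library was WT control replicate 1P (log2 fold change 0.78 ± 0.38, adjusted p 0.081, edgeR). It passed in 7 of 47 alternatives: without WT control replicate 1P (1.02, adjusted p 0.0261), KI control replicate 1P (1.02), KI ASK1i replicate 3 (0.87), WT ASK1i replicate 7 (0.90) or WT control replicate 5 (0.89), and in numbered titles or female libraries only. Its sign turned in 2, with the L code as a term (-0.51) and among P titles only (-0.81). P titles held 1 KI control and 2 WT control libraries, and female libraries 1 KI control library. The KI control value of each of these fits therefore rests on 1 library. Ccne1, a cyclin of S phase entry, was at 1.00 to 3.11 CPM in KI control and 0.135 to 3.50 CPM in WT control liver (log2 fold change 1.40 ± 0.48, adjusted p 0.0148, edgeR). WT control replicate 1P held the top Ccne1 value too. The call was lost in 8 of 47 alternatives, among them without KI control replicate 2 (adjusted p 0.0753), without covariates (0.0726) and among P titles only (log2 fold change 0.04), and the sign turned with the L code as a term (-0.17). Ccne2, its paralogue, was at 0.835 to 2.40 and 0.641 to 2.67 CPM in these groups, without a call (log2 fold change 0.16 ± 0.28, adjusted p 0.647, edgeR). E2f1, a transcription factor that switches on S phase genes, had 2.49, 4.49, 4.94, 3.38 and 2.34 CPM in KI control and 0.864 to 2.45 CPM in WT control liver. Its groups overlapped in 1 KI control library (log2 fold change 1.00 ± 0.26, adjusted p 0.0016, edgeR). E2f1 did not pass with the L code as a term (0.62, adjusted p 0.236, edgeR), in male libraries only (0.81, adjusted p 0.0896, edgeR) or in female libraries only. Chek1, the kinase that guards stalled forks, had 0.387, 2.10, 2.24, 0.718 and 0.751 CPM in KI control and 0 to 0.737 CPM in WT control liver (log2 fold change 2.09 ± 0.43). At these levels a library held 14 to 93 counts of Chek1 in KI control and 0 to 24 in WT control liver.

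The cyclins of G2 and mitosis, their kinase and its regulators were all higher in KI control liver (6 of 6, median log2 fold change 2.89). Ccnb1 (chr13:100778738-100786486, mm10), the B-type cyclin that activates CDK1 at mitotic entry, had 2.76, 5.02, 9.79, 4.69 and 0.974 CPM in KI control replicates 1, 1P, 2, 3 and 4, against 0.0640 to 0.338 CPM (median 0.237) in WT control liver. The groups did not overlap, though the KI control libraries themselves spanned a wide range. Its log2 fold change of 4.28 ± 0.63 (adjusted p 1.97e-06, edgeR) was the largest of the 44, and it rests on 2 to 11 counts per WT control library. Ccnb2, the second B-type cyclin, was at 1.42 to 10.5 CPM in KI control and 0.254 to 0.829 CPM in WT control liver (log2 fold change 3.17 ± 0.47). Cdk1, the mitotic kinase, had 6.11, 8.01, 13.6, 6.18 and 2.73 CPM in KI control and 0.879 to 2.80 CPM in WT control liver, where replicate 1P alone reached the lowest KI control value (log2 fold change 2.21 ± 0.40, adjusted p 2.85e-05, edgeR). Cdk1 did not pass with the L code as a term (1.55, adjusted p 0.056, edgeR) or in male libraries only (1.92, adjusted p 0.0522, edgeR). Ccna2, the cyclin of S phase and G2, Foxm1, a transcription factor of G2/M genes, and the kinase gene Melk had log2 fold changes of 2.83, 2.94 and 2.71, that of Melk on 0 to 13 counts per WT library.

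The 3 mitotic chromosome genes were called, with a median log2 fold change of 3.48. Mki67 (chr7:135689787-135716379, mm10), the source of the Ki-67 antigen that coats mitotic chromosomes, had 25.6, 34.2, 52.2, 25.6 and 10.7 CPM in KI control replicates 1, 1P, 2, 3 and 4, against 1.62 to 4.22 CPM (median 2.57) in WT control liver. The lowest KI control library was above the highest WT control library (log2 fold change 3.48 ± 0.48, adjusted p 7.87e-07, edgeR). Top2a, the topoisomerase that untangles sister chromatids, had 12.5, 24.2, 31.6, 17.8 and 6.79 CPM in KI control and 0.539 to 2.06 CPM in WT control liver (log2 fold change 3.74 ± 0.51). Nusap1, which binds spindle microtubules near chromosomes, was at 1.11 to 8.08 and 0.381 to 0.891 CPM in these groups (log2 fold change 2.87 ± 0.54). Neither gene's groups overlapped.

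All 6 kinetochore and spindle checkpoint genes were higher in KI control liver (median log2 fold change 3.13). Cenpe, the kinesin that carries chromosomes to the spindle equator, had 3.23, 4.07, 7.79, 3.95 and 1.59 CPM in KI control and 0.106 to 0.726 CPM in WT control liver (log2 fold change 3.48 ± 0.54, adjusted p 3.42e-06, edgeR). Bub1b, whose product delays anaphase until chromosomes are attached, was at 2.61 to 8.88 CPM in KI control and 0.477 to 1.47 CPM in WT control liver (log2 fold change 2.41 ± 0.36). Both genes separated the groups. Bub1, its partner kinase, Ndc80, which holds microtubules at the kinetochore, and Cenpf, a large protein of the outer kinetochore, had log2 fold changes of 3.27, 2.98 and 3.33. Mad2l1, another checkpoint protein, changed least of the G2/M genes, with 4.50, 6.27, 9.82, 5.64 and 2.59 CPM in KI control replicates 1, 1P, 2, 3 and 4 and 2.10 to 4.01 CPM in WT control liver. Its log2 fold change was 0.80 ± 0.28 (adjusted p 0.0178, edgeR), and without KI control replicate 2 the adjusted p was 0.116.

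The mitotic kinases and the chromosomal passenger complex were called in 5 of 5 (median log2 fold change 2.40). Plk1, the Polo kinase of centrosomes and kinetochores, was at 1.50 to 5.50 CPM in KI control and 0.191 to 0.522 CPM in WT control liver (log2 fold change 2.92 ± 0.48). Aurkb, the kinase of the passenger complex, was at 1.53 to 6.59 and 0.0954 to 0.774 CPM in these groups (log2 fold change 3.34 ± 0.55). Birc5, the survivin subunit of that complex, had 5.50, 5.64, 11.4, 6.15 and 4.03 CPM in KI control and 1.09 to 3.59 CPM in WT control liver (log2 fold change 1.61 ± 0.39, adjusted p 0.000796, edgeR). Birc5 did not pass with the L code as a term (1.38, adjusted p 0.0831, edgeR) or in female libraries only. None of these 3 genes overlapped between the groups. Aurka, the centrosome kinase, and Cdca8, a further passenger subunit, had log2 fold changes of 2.40 and 2.23.

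Spindle motor and cytokinesis genes were called in 4 of 4 (median log2 fold change 2.81), as were both partners of the anaphase-promoting complex (3.09). Kif11, the motor that pushes spindle poles apart, had 6.02, 8.49, 13.0, 6.64 and 1.98 CPM in KI control replicates 1, 1P, 2, 3 and 4 and 0.985 to 2.03 CPM in WT control liver, with a single overlap, between KI control replicate 4 and WT control replicate 1P. Its log2 fold change was 2.39 ± 0.40 (adjusted p 1.14e-05, edgeR). Tpx2, an activator of Aurora A on the spindle, was at 2.23 to 11.0 CPM in KI control and 0.106 to 0.799 CPM in WT control liver (log2 fold change 3.53 ± 0.57). Kif20a, a kinesin of the late spindle, was at 1.89 to 10.1 and 0.477 to 1.11 CPM in these groups (log2 fold change 2.53 ± 0.44), and Prc1, which bundles midzone microtubules, had a log2 fold change of 3.08. Cdc20, which turns the anaphase-promoting complex on, was at 1.14 to 8.15 CPM in KI control and 0.223 to 1.06 CPM in WT control liver (log2 fold change 2.91 ± 0.51). Ube2c, the ubiquitin-conjugating enzyme of that complex, was at 0.723 to 4.80 and 0.108 to 0.528 CPM (log2 fold change 3.26 ± 0.55). Cdc20, Ube2c, Tpx2 and Kif20a each separated the groups fully.

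On the ASK1i diet, 37 of the 44 genes were higher in KI ASK1i than in WT ASK1i liver and none was lower. Over all genes, 30.3% were called higher and 28.8% lower (59.1% in all). The members' median log2 fold change was 1.83, beside 0.01 over all genes. It was 2.38 over the 26 G2/M genes, of which 25 were called, and 0.54 over the 18 G1/S genes, of which 12 were called. Without the library labelled KI ASK1i replicate 5, again 37 were called and the median was 1.97. Over all genes, 4742 were then called higher and 4693 lower, against 4525 and 4294 with it. Every KI ASK1i library lay above every WT ASK1i library in 1 of 44 members, Ccnb2, beside 2.36% of all genes. Without that library it was 20 of 44. The share of all genes was not counted without it, so 2.36% is no baseline for the 20. The 7 not called were Mad2l1 (log2 fold change 0.11) and the G1/S genes Pcna (0.15), Tyms (-0.30), Tk1 (-0.37), Ccnd1 (-0.21), Ccne2 (0.18) and E2f1 (0.41). Without that library E2f1 passed (adjusted p 0.0441, edgeR) and Rrm2 no longer did (adjusted p 0.0564).

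The levels in these groups followed the same roles. Mki67 was at 1.68 to 54.8 CPM (median 16.1) in KI ASK1i and 0.790 to 3.82 CPM (median 2.66) in WT ASK1i liver (log2 fold change 3.00 ± 0.45, adjusted p 1.55e-06, edgeR). Its lowest KI ASK1i value was that of replicate 5, and the other 9 lay above all WT ASK1i libraries. Ccnb1 was at 0.0914 to 9.58 CPM (median 2.45) in KI ASK1i and 0 to 0.494 CPM (median 0.308) in WT ASK1i liver (log2 fold change 3.34 ± 0.57). Mcm6 was at 3.69 to 18.9 CPM (median 14.2) in KI ASK1i and 2.57 to 6.14 CPM (median 3.94) in WT ASK1i liver (log2 fold change 1.55 ± 0.22). For both genes the same 9 libraries lay above all WT ASK1i libraries. Without replicate 5 the lowest KI ASK1i values were 7.72 CPM of Mki67, 1.01 CPM of Ccnb1 and 8.79 CPM of Mcm6. Ccnd1 was at 28.5 to 102 CPM (median 63.8) in KI ASK1i and 15.4 to 207 CPM (median 45.7) in WT ASK1i liver, and its highest values, 182 and 207 CPM, were those of WT ASK1i replicates 1P and 2P, the only WT ASK1i libraries with a P title. Among libraries with P titles alone, 4 KI ASK1i and 2 WT ASK1i of 1 L code, 34 members were called, 32 higher and 2 lower in KI ASK1i. The lower ones were Ccnd1 and Tyms. Over all genes, 3105 were called higher and 2636 lower in that fit.

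**Figure D3:**
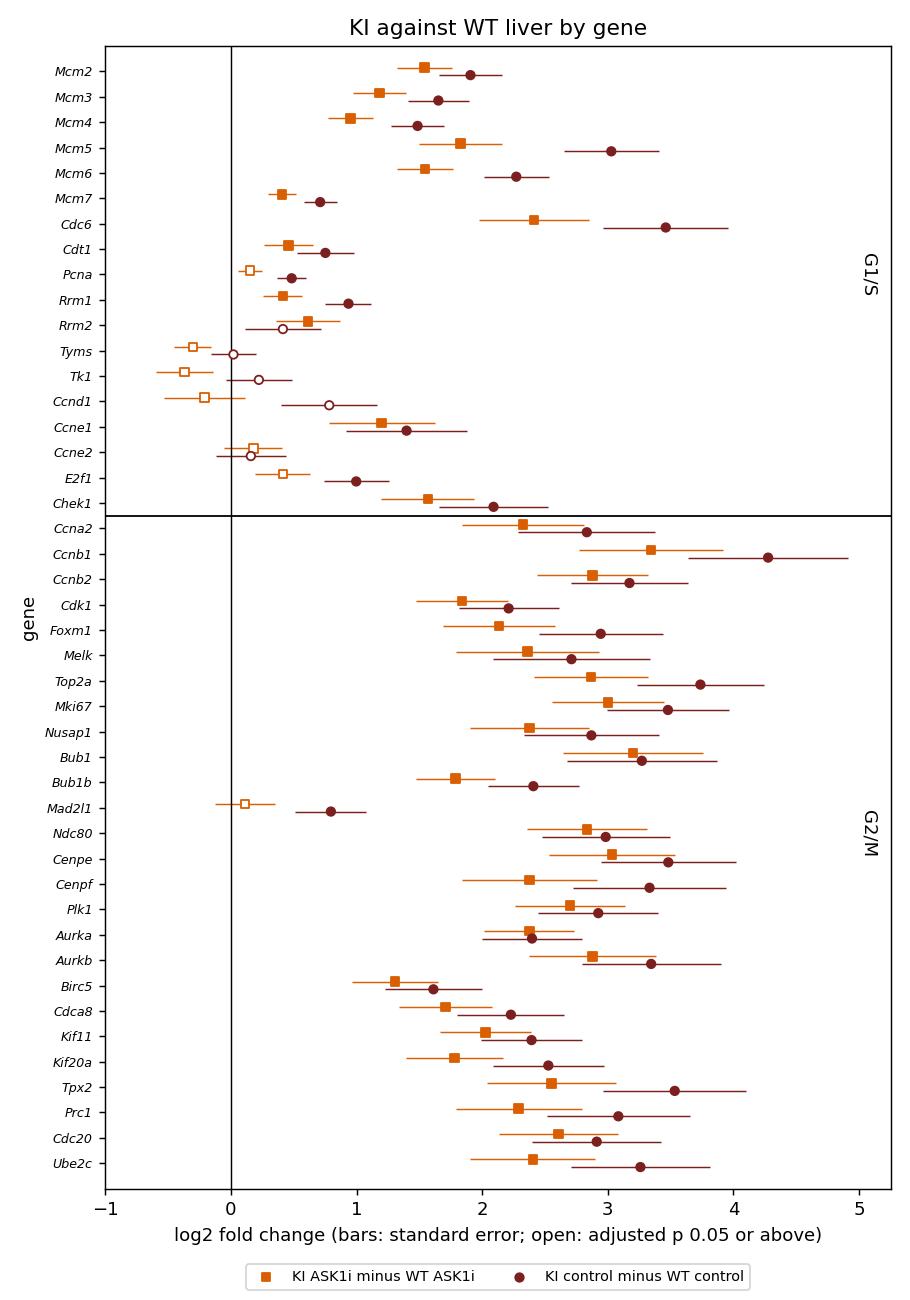
Log2 fold change with its standard error for each gene, KI ASK1i minus WT ASK1i (squares) and KI control minus WT control (circles), with filled symbols where the adjusted p was below 0.05. G2/M genes other than Mad2l1 and Birc5 lie between 1.71 and 4.28, whereas G1/S genes spread from -0.37 to 3.46.

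Neither diet comparison called any of the 44 genes. In KI liver, ASK1i against control chow called 0.0536% of all genes, and 0 members by edgeR and by DESeq2. All 44 members had a negative log2 fold change, with a median of -0.53 (-0.90 to -0.06), beside 0.03 over all genes. The median was -0.55 over the G2/M genes and -0.36 over the G1/S genes. At an unadjusted p below 0.05, beside 1539 of the 14934 genes tested, there were 8 members, all of them G1/S genes. The 3 with the smallest p were Mcm6 (-0.67 ± 0.24), Mcm7 (-0.33 ± 0.13) and Ccnd1 (-0.90 ± 0.37), with adjusted p of 0.429, 0.435 and 0.449 (edgeR). Mcm6 averaged 13.1 ± 4.23 CPM in KI ASK1i (SD, n = 10, and 14.1 ± 2.81 CPM without replicate 5) and 21.0 ± 9.92 CPM in KI control liver (SD, n = 5). Single libraries set the size: the median over the members was -0.18, with 38 negative, without KI control replicate 2, and -0.91 without KI ASK1i replicate 2. Without KI ASK1i replicate 5 it was -0.41, and without KI control replicate 4 it was -0.70.

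In WT liver, ASK1i against control chow called 1.40% of all genes (1.13% higher and 0.268% lower) and 0 members by edgeR and by DESeq2, with a median log2 fold change of 0.02 over the members. Of the members only Rrm2 had an unadjusted p below 0.05, beside 2079 of all genes tested. It was at 4.12 to 6.13 CPM in WT ASK1i and 5.98 to 10.7 CPM in WT control liver (log2 fold change -0.53 ± 0.26, adjusted p 0.358, edgeR), and it passed when only these groups were fitted (adjusted p 0.0145). Tyms (0.18 ± 0.15) and Mcm5 (0.41 ± 0.34) had the next smallest p. The test of whether the diet's difference depended on genotype called 0 of all genes by edgeR (1251 at an unadjusted p below 0.05) and 16 by DESeq2, and no member by either tool. Its median log2 value over the members was -0.49, and 4 members had an unadjusted p below 0.05. The smallest were those of Mcm5 (-1.20 ± 0.49), Rrm1 (-0.52 ± 0.24) and Pcna (-0.33 ± 0.15), with adjusted p of 0.556, 0.572 and 0.572 (edgeR).

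Library by library, the G2/M genes had moved further than the G1/S genes on the log2 scale. The mean log2 CPM of the G2/M genes above the WT control mean was -0.46 to 3.85 (median 1.99, lowest 1.07 without replicate 5) in KI ASK1i and 1.46 to 3.79 (median 2.83) in KI control libraries, against -0.97 to 0.44 in WT ASK1i and -0.37 to 0.55 in WT control libraries. For the G1/S genes it was -0.22 to 1.57 (median 0.99, lowest 0.33 without replicate 5) in KI ASK1i and 0.77 to 2.05 (median 1.21) in KI control libraries, against -0.28 to 0.64 in WT ASK1i and -0.31 to 0.67 in WT control libraries. The G2/M index exceeded the G1/S index in every KI library but the one labelled KI ASK1i replicate 5. On the scale of level per length the order of the phases differed on control chow but not on the ASK1i diet. The median G1/S gene was at 3.84 CPM per kilobase of transcript in KI control and 1.16 in WT control liver, and the median G2/M gene at 1.66 and 0.216. The difference KI control minus WT control had a median of 2.07 CPM per kilobase over the G1/S genes and 1.45 over the G2/M genes, and the difference KI ASK1i minus WT ASK1i had a median of 0.736 over the G1/S and 0.907 over the G2/M genes (0.870 and 1.02 without KI ASK1i replicate 5). The G2/M genes, with the larger fold changes, had the lower level in WT liver.

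Other genes of the cycle were counted in the same test on control chow, where 56.7% of all genes were called. Of 52 other mitosis genes, 39 were higher and 2 lower in KI control liver (78.8% called), with a median log2 fold change of 1.87. The smallest p among the higher ones were those of Incenp, the scaffold of the passenger complex (1.97 ± 0.29), the microtubule depolymerase Kif2c (3.17 ± 0.50) and the spindle protein Ckap2 (3.02 ± 0.48). The lower ones were Pttg1 (log2 fold change -0.59 ± 0.11) and the kinetochore gene Zwint (-0.24 ± 0.10). Pttg1 is the securin that blocks the separation of sister chromatids until anaphase. It averaged 14.5 ± 1.75 CPM in KI control and 22.8 ± 2.07 CPM in WT control liver (SD, n = 5 and 10). Of 47 other replication factors, 24 were higher and 5 lower (61.7% called, near the share over all genes, median 0.40). Uhrf1, which guides maintenance methylation, averaged 6.87 ± 4.04 CPM in KI control and 0.341 ± 0.0875 CPM in WT control liver (log2 fold change 4.08 ± 0.48), followed by the histone chaperone gene Asf1b (2.73 ± 0.38) and the polymerase delta subunit Pold1 (0.86 ± 0.12). The lower ones included Mcm10, a replication initiation factor, at 11.4 ± 2.20 CPM in KI control and 38.3 ± 23.4 CPM in WT control liver (-1.84 ± 0.27), and the origin recognition subunit Orc3 (-0.25 ± 0.08).

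Among 22 G1 cyclins, CDKs and members of the RB and E2F families, 10 were higher and 3 lower (59.1% called, also near the share over all genes, median 0.20). The phosphatase gene Cdc25a (2.25 ± 0.25), the transcription factor gene E2f2 (3.02 ± 0.43) and the pocket protein gene Rbl1 (1.31 ± 0.23) led the higher ones, and the pocket protein gene Rbl2 (-0.54 ± 0.09), Tfdp2 (-0.46 ± 0.12) and E2f6 (-0.34 ± 0.14) were the lower ones. Of 10 tested histone, chromatin and tubulin genes linked to proliferation, 6 were higher and 2 lower. Tuba1b (1.37 ± 0.18), Tubb5 (1.09 ± 0.15) and Hmgb2 (2.33 ± 0.40) led the higher ones, and H2afv (-0.35 ± 0.13) and Hist1h2bc (-0.45 ± 0.17) were lower. These families have near-identical copies among which reads may be divided, so their single values are uncertain.

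Of the 5 CDK inhibitors tested, which brake the cycle, 1 was called on control chow. Cdkn2d averaged 6.92 ± 2.21 CPM in KI control and 2.08 ± 0.429 CPM in WT control liver (log2 fold change 1.70 ± 0.29, adjusted p 1.6e-05, edgeR). Cdkn1a, the p21 gene, averaged 12.7 ± 8.96 CPM in KI control and 24.9 ± 24.7 CPM in WT control liver, a spread as large as its mean (-0.37 ± 0.57). Cdkn1a was not called in this fit, but with the L code as a term it was called higher (1.69, adjusted p 0.0471, edgeR). Among P titles only, with 1 KI control library, its log2 fold change was 1.64. Cdkn1b (0.14 ± 0.09), Cdkn2c (-0.01 ± 0.13) and Cdkn1c (-0.01 ± 0.32) were not called in the main fit either. On the ASK1i diet 4 of the 5 were called: Cdkn1a (1.57 ± 0.51) and Cdkn2d (1.19 ± 0.26) were higher and Cdkn1c (-1.27 ± 0.26) and Cdkn2c (-0.51 ± 0.10) lower in KI ASK1i than in WT ASK1i liver. Without KI ASK1i replicate 5 these 4 again passed, and Cdkn1b did too (0.20, adjusted p 0.0064, edgeR). Cdkn1a no longer passed in 4 of 47 alternatives (edgeR). These were numbered titles only (0.70, adjusted p 0.229), no covariates (1.02, adjusted p 0.112), female libraries only (1.87, adjusted p 0.0649) and male libraries only (1.11, adjusted p 0.126). Between the diets in WT liver, Cdkn1c (log2 fold change 1.09, adjusted p 0.0326, edgeR) and Cdkn2c (0.41, adjusted p 0.0408) were higher in WT ASK1i liver, but the call was lost in 16 of 47 alternatives for Cdkn1c and in 35 of 47 for Cdkn2c. Cdkn1a was not called there (-1.73, adjusted p 0.0875, edgeR). It was called lower in 3 of 47 alternatives, among them DESeq2 (-1.74, adjusted p 0.0125). No CDK inhibitor passed the test of the diet's dependence on genotype.

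Markers of myeloid cells and megakaryocytes were higher in KI liver alongside the members, whereas most of the B and plasma cell list was lower. On both diets 4 of its 5 genes were called lower. On the ASK1i diet the other gene, Igj of plasma cells, was called higher (mean 8.93 CPM in KI ASK1i and 1.70 CPM in WT ASK1i liver). The neutrophil precursor list (Mpo, Elane, Prtn3, Ctsg, Ms4a3, Cebpe and Fcnb) was called higher in 6 of 7 in KI control liver, beside 27.8% of all genes. Cebpe was not called. Its summed level was 2.41 to 510 CPM in KI ASK1i and 70.3 to 426 CPM in KI control, against 5.13 to 27.6 CPM in WT ASK1i and 2.31 to 26.3 CPM in WT control libraries. Ctsg, Ms4a3 and Fcnb were at 0 counts in 7, 7 and 8 of 8 WT ASK1i libraries and in 7, 9 and 7 of 10 WT control libraries. The KI libraries with the highest G2/M sums, 292 CPM in KI ASK1i replicate 2 and 280 CPM in KI control replicate 2, also had the highest precursor sums, 510 and 426 CPM. Those with the lowest G2/M sums apart from KI ASK1i replicate 5, namely KI ASK1i replicates 6 and 3 (41.7 and 44.0 CPM) and KI control replicate 4 (56.0 CPM), had the lowest precursor sums, 58.6, 74.9 and 70.3 CPM. KI ASK1i replicate 5 itself had 14.7 CPM of G2/M genes and 2.41 CPM of precursor markers. This ranking was not particular to the precursor list. The summed late neutrophil markers were also highest in KI ASK1i replicate 2 (4660 CPM) and KI control replicate 2 (3522 CPM). Apart from KI ASK1i replicate 5, they were lowest in KI ASK1i replicates 6 and 3 (660 and 674 CPM) and KI control replicate 4 (664 CPM).

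**Figure D4:**
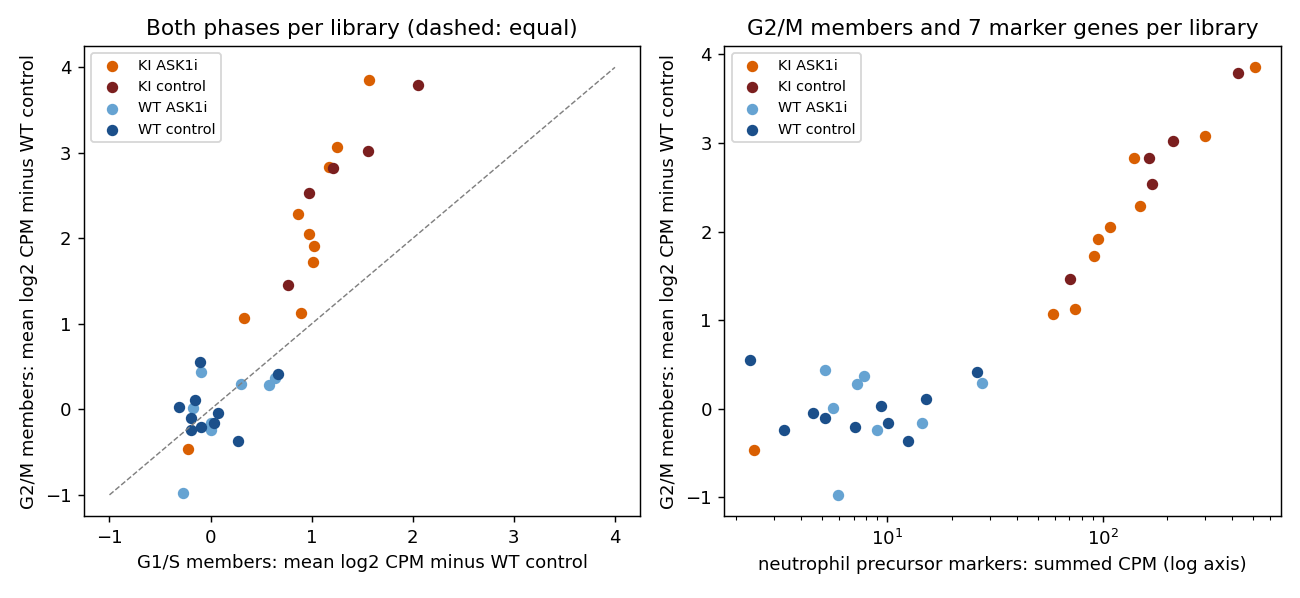
Left, mean log2 CPM of the G2/M genes against that of the G1/S genes, both minus the WT control mean, in each library, with a dashed line of equality. Right, the G2/M value against the summed CPM of the 7 neutrophil precursor markers (log axis). KI libraries rise together on both panels from 1.07 to 3.85 in G2/M, and KI ASK1i replicate 5 lies among the WT libraries.

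Over all genes, 27.8% were called higher and 28.9% lower on control chow, where the other marker lists were counted too. Calls of higher level came in 8 of 8 late neutrophil, 7 of 7 monocyte-macrophage, 5 of 5 Kupffer cell and 4 of 4 megakaryocyte genes. Of 5 tested haematopoietic progenitor genes, 3 were higher and 1 lower. Hepatocyte markers were lower in 5 of 8 and higher in 1, and B and plasma cell markers lower in 4 of 5. T and NK cell markers were higher in 4 of 7 (1 lower). Their summed level was lower, 8.97 to 16.2 CPM in KI control and 16.8 to 35.6 CPM in WT control libraries. Most of the WT control sum was Zap70, the gene called lower, with a mean of 3.67 CPM in KI control and 18.8 CPM in WT control liver. The other 6 T and NK genes had positive log2 fold changes. Endothelial markers were higher in 3 of 4 (1 lower), stellate cell markers in 4 of 5 and bile duct cell markers in 1 of 4, the last near the share over all genes. Of the erythroid precursor list, 1 of 6 tested genes was higher and 3 were lower. The part of these cells in the members' differences was not tested.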

How the data were processed

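RNA-seq of 33 mouse liver libraries was used; per the labels' protocols, RNA came from frozen liver (Qiagen miRNeasy) and polyadenylated RNA was sequenced from TruSeq Stranded mRNA libraries. The authors deposited RSEM expected counts per gene, not normalised. CASAVA 1.8.2, STAR 2.4, RSEM 1.2.14 and the build mm10 are named in the submitters' processing notes, whereas their settings, the use of strand and the gene models were not given in the sources used here. RSEM divides reads among near-identical copies, so genes with processed pseudogenes are less certain. Positions are those of mm10 given in the table.

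Expected counts were rounded and fitted in R 4.3.3 with edgeR 4.0.16 (TMM scaling, a low-count filter by filterByExpr on the groups, and the two-sided quasi-likelihood F test, robust). The model held group, sex and title set (numbered or P) and was fitted to the 33 libraries together, with a common estimate of spread. P-values were adjusted by Benjamini-Hochberg across the 14934 tested genes of each comparison, with a threshold of 0.05. The prior count behind log2 fold changes was 0.125. DESeq2 1.42.0 and the other settings of the closing section were alternatives. The fit was tested on simulated counts. No pair of libraries agreed within sampling noise: over 14220 genes the lowest chi-square per gene was 22.7 in 128 pairs within groups and 44.4 in 400 pairs across groups. CPM are edgeR values on TMM library sizes. Levels per length divide CPM by the transcript length of the GENCODE M21 annotation.

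The members, lists and rules were chosen with earlier results of these data known. The rule named, per role list, the gene with the highest mean CPM and the 2 others with the smallest p on control chow, every member not called there, and the 3 smallest p of a comparison with no call, 29 of the 44 in all. The other members fall outside this rule and were added with their values known. From each other cycle list it named up to 3 called genes per direction and all tested CDK inhibitors. Some items named by the rule are not reported here. The promoters printed were chosen after their matches were seen. No p is given for the contrast of G1/S with G2/M genes, which is a description.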

Additional observations from a re-analysis of the deposited data

Results flagged for a closer look

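In 30 of 188 groups of libraries (44 genes and 3 phase indices in 4 groups), the highest or lowest library stood apart from the others by its gap relative to the group's range. The cut-offs would pick about 1 group in 20 by chance if values were normally spread and groups independent. The genes were not independent, as 13 of the flags fell on 1 library, and the values were CPM. The count therefore cannot be set against that rate.

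KI ASK1i replicate 2 stood highest among the KI ASK1i libraries for 13 genes. Its CPM values were 3.30 for Cdc6, 18.8 for Rrm2, 7.11 for Tyms, 2.44 for Ccne2, 14.9 for Ccna2, 9.85 for Ccnb2 and 7.49 for Foxm1. It also had 7.70 CPM of Plk1, 7.22 of Aurka, 11.1 of Birc5, 13.8 of Kif11, 10.8 of Kif20a and 7.03 of Ube2c. The same library had the highest neutrophil precursor sum, 510 CPM, and the part of that was not tested. KI control replicate 2 stood highest among KI control libraries for Mcm7 (34.0 CPM), Cdt1 (8.90 CPM) and Birc5 (11.4 CPM). KI control replicate 4 had the lowest difference between the G2/M and the G1/S index of its group, 0.69 on the log2 scale.

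WT control replicate 1P stood highest among WT control libraries for 7 genes, with 3.04 CPM of Mcm5, 187 of Ccnd1, 3.50 of Ccne1, 2.67 of Ccne2, 0.737 of Chek1, 2.80 of Cdk1 and 2.03 of Kif11. In that group replicate 3 was highest for Mcm3 (6.63 CPM), replicate 4 for Bub1 (0.703 CPM) and Aurka (0.809 CPM), and replicate 1 for Cenpf (1.02 CPM) and Cdc20 (1.06 CPM). WT control replicate 2P was lowest for Kif20a, with 0.477 CPM.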

How the results depend on the processing

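The count of members called stayed within 1.5 times its value in every alternative for KI against WT on both diets. On control chow it was 28 with the L code as a term and 36 to 40 when 1 library was left out. It was 33 to 39 in the other alternatives, among them fits to 1 sex or 1 title set, some with 1 KI control library. On the ASK1i diet it was 28 (female libraries only) to 38, and 35 to 38 when 1 library was left out. Calls over all genes moved too. On control chow they were 8466 in the main fit, 5103 with the L code, 6244 in male libraries only and 7386 to 8926 when 1 library was left out. On the ASK1i diet they were 8819 in the main fit, 5712 in female libraries only and 8371 to 9435 when 1 library was left out. The 3 member counts of the diet comparisons and the interaction were 0 in each, except for 1 member, Rrm2, when only the WT groups were fitted. The median of the G2/M genes exceeded that of the G1/S genes by 1.97 (log2) on control chow, and by 1.35 in female libraries only, where KI control held 1 library; the cause was not tested. It was 1.88 to 2.07 when 1 library was left out, 1.61 to 2.02 on the ASK1i diet, and -0.55 to -0.04 for ASK1i against control chow in KI liver. On control chow Ccne1 reversed to -0.17 with the L code as a term, and Ccnd1, which was not called, spanned -0.81 to 1.39. No alternative lost the call of 27 of 39 called members on control chow and 27 of 37 on the ASK1i diet. The others on control chow were Cdt1, Pcna, Rrm1, Ccne1, E2f1, Chek1, Cdk1, Melk, Bub1, Mad2l1, Birc5 and Cdca8. On the ASK1i diet they were Mcm7, Cdt1, Rrm1, Rrm2, Ccne1, Chek1, Melk, Cenpf, Birc5 and Ube2c. Replicate numbers did not pair the libraries: over 37 same-numbered pairs the median correlation of deviations was 0.02, with 14 over 0.1, so the replicate block, with 38 members called on control chow, 36 on the ASK1i diet and 0 in the other comparisons, is given as a check only. Column prefix and robust=FALSE were chosen after seeing the data. Counts of at most 20 in every WT library limit 5 members, Melk, Ndc80, Cdc6, Ccnb1 and Bub1.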
